A study of Mus musculus with 9 samples.

Results

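A set of 10 genes of fatty acid handling was followed through sorted splenic monocytes of C57BL/6 mice. They are the nuclear receptor gene Pparg, the fatty acid transporter gene Cd36, the binding protein genes Fabp4 and Fabp5, the lipase gene Lpl, the lipid droplet gene Plin2, the desaturase genes Scd1 and Scd2, and Cpt1a and Acsl1 of fatty acid oxidation and activation. Members were chosen by symbol, and all 10 were found by their Ensembl IDs among the 55487 gene IDs of each count table. The libraries form 3 groups of 3. KO Ly6Clo monocytes came from mice homozygous for loss of the +37 element of Cebpa (genotype Cebpa +37-/-), WT Ly6Clo monocytes and WT Ly6Chi monocytes from wild-type mice. All were untreated and sort-purified at 40000 to 50000 cells per library, and the labels give neither the age of the mice nor the bounds of the deleted element. Ly6Chi monocytes are the classical subset and Ly6Clo monocytes the patrolling, nonclassical one. The product of Cebpa, C/EBP-alpha, controls transcription in myeloid cells and adipocytes. KO Ly6Chi monocytes were not analysed here.

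PPAR-gamma, the product of Pparg, is a receptor for fatty acids and their derivatives. It binds DNA together with a retinoid X receptor (RXR), and in adipocytes and some macrophages it raises the genes of lipid uptake and binding, among them Cd36 and Fabp4. Fatty acids reach the cell through lipoprotein lipase (Lpl) and CD36, are carried by the FABP proteins, are joined to coenzyme A by ACSL1, and are then either stored in droplets coated by perilipin 2 (Plin2) or taken into mitochondria through CPT1A. Stearoyl-CoA desaturases (Scd1, Scd2) place a double bond in saturated chains.

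Depth ran from 48141590 to 173703361 gene counts per library, and replicate 2 of KO Ly6Clo and of WT Ly6Clo were the deepest. Of the 10 genes, Scd1 had the fewest counts, 8 in WT Ly6Chi replicate 3. Levels below are CPM (read counts scaled to a common total) on library sizes scaled by TMM, given for replicates 1, 2 and 3 of a group in that order. Cebpa was at 4.04, 2.89 and 2.74 CPM in KO Ly6Clo libraries, against 18.2, 17.7 and 19.2 CPM in WT Ly6Clo (log2 fold change -2.51, edgeR adjusted p = 0.015). That call held in 9 of 18 alternative settings. It was lost, with the groups still far apart, without KO Ly6Clo replicate 2 or 3, any one WT Ly6Clo library or WT Ly6Chi replicate 3 (edgeR adjusted p from 0.055 to 0.079). The other losses were in a fit of these 2 groups alone, with a replicate block and without both Ly6Clo libraries numbered 2 (edgeR adjusted p = 0.13, 0.056 and 0.18). The 7 Ly6Chi markers summed to 124 to 207 CPM in KO Ly6Clo, 149 to 166 CPM in WT Ly6Clo and 7958 to 10632 CPM in WT Ly6Chi libraries. By this list each library matched its labelled subset. The 8 Ly6Clo markers separated the subsets less. They summed to 6959 to 13223 CPM in KO Ly6Clo, 10098 to 19483 CPM in WT Ly6Clo and 1340 to 6202 CPM in WT Ly6Chi. Nr4a1 was a large part of these sums, at 1638 to 6262, 2458 to 11134 and 322 to 2785 CPM in these groups. Single members, among them Cx3cr1 and Nr4a1, overlapped between the subsets. The WT Ly6Chi group was uneven. Its replicate 1 had 1340 CPM over the 8 Ly6Clo markers, against 5776 and 6202 CPM in its replicates 2 and 3. Replicate 3 had Ddx3y and Eif2s3y, genes of the Y chromosome, at 0 and Xist at 30.04 CPM. Replicates 1 and 2 had Ddx3y at 77.3 and 69.4 CPM and Xist at 0 and 0.042 CPM, and all Ly6Clo libraries had the Y genes. By these genes replicate 3 was female and all other libraries male, so sex differs within WT Ly6Chi. Library numbers split the set into a run beginning with 17 (replicates 1 and 2 of both Ly6Clo groups, replicate 1 of WT Ly6Chi) and one beginning with 18, and the labels do not say what that number marks. WT Ly6Chi replicate 3 thus came from another animal than replicates 1 and 2 of its group. Whether the other replicates are separate animals is not in the labels. Every p-value here reflects only how far these libraries spread, which may be technical and, in WT Ly6Chi, includes a difference of sex.

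In the comparison of KO with WT Ly6Clo monocytes, which asks what loss of the Cebpa element changed within the subset, 0 of the 10 genes passed edgeR's quasi-likelihood test (adjusted p under 0.05, a call made for 0.0709% of the 18341 genes tested). DESeq2 and limma-voom called 0 as well. An unadjusted edgeR p under 0.05 was found for 2 of the 10, Fabp4 and Scd2, against 6.16% of all genes. Both had groups that did not overlap, as 10.9% of all genes did. The median log2 fold change of the 10 was -0.14, and 0.03 over all genes tested.

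In the comparison of WT Ly6Clo with WT Ly6Chi monocytes, 4 of the 10 genes were called, against 3.51% of all genes. Fabp4, Pparg and Cd36 were higher in WT Ly6Clo (1.88% of all genes were called higher) and Fabp5 was lower (1.62% were called lower). Groups were apart without overlap for 7 of the 10, against 28.3% of all genes. KO Ly6Clo against WT Ly6Chi gave 5 called genes against 4.52% of all genes, with Pparg, Cd36, Fabp4 and Scd2 higher (2.06% of all genes) and Fabp5 lower (2.46%). There 6 of the 10 were without overlap, against 22.9% of all genes. That comparison differs in genotype and in subset at once. With no KO Ly6Chi group analysed, the effects of deletion and subset cannot be told apart in it, for these or the pathway genes below. These comparisons share libraries, the last 2 the WT Ly6Chi group, so their values stand side by side and do not support each other. RNA of a sorted population was sequenced as a whole, so fewer cells of a type and less RNA per cell cannot be told apart.

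**Figure D1:**
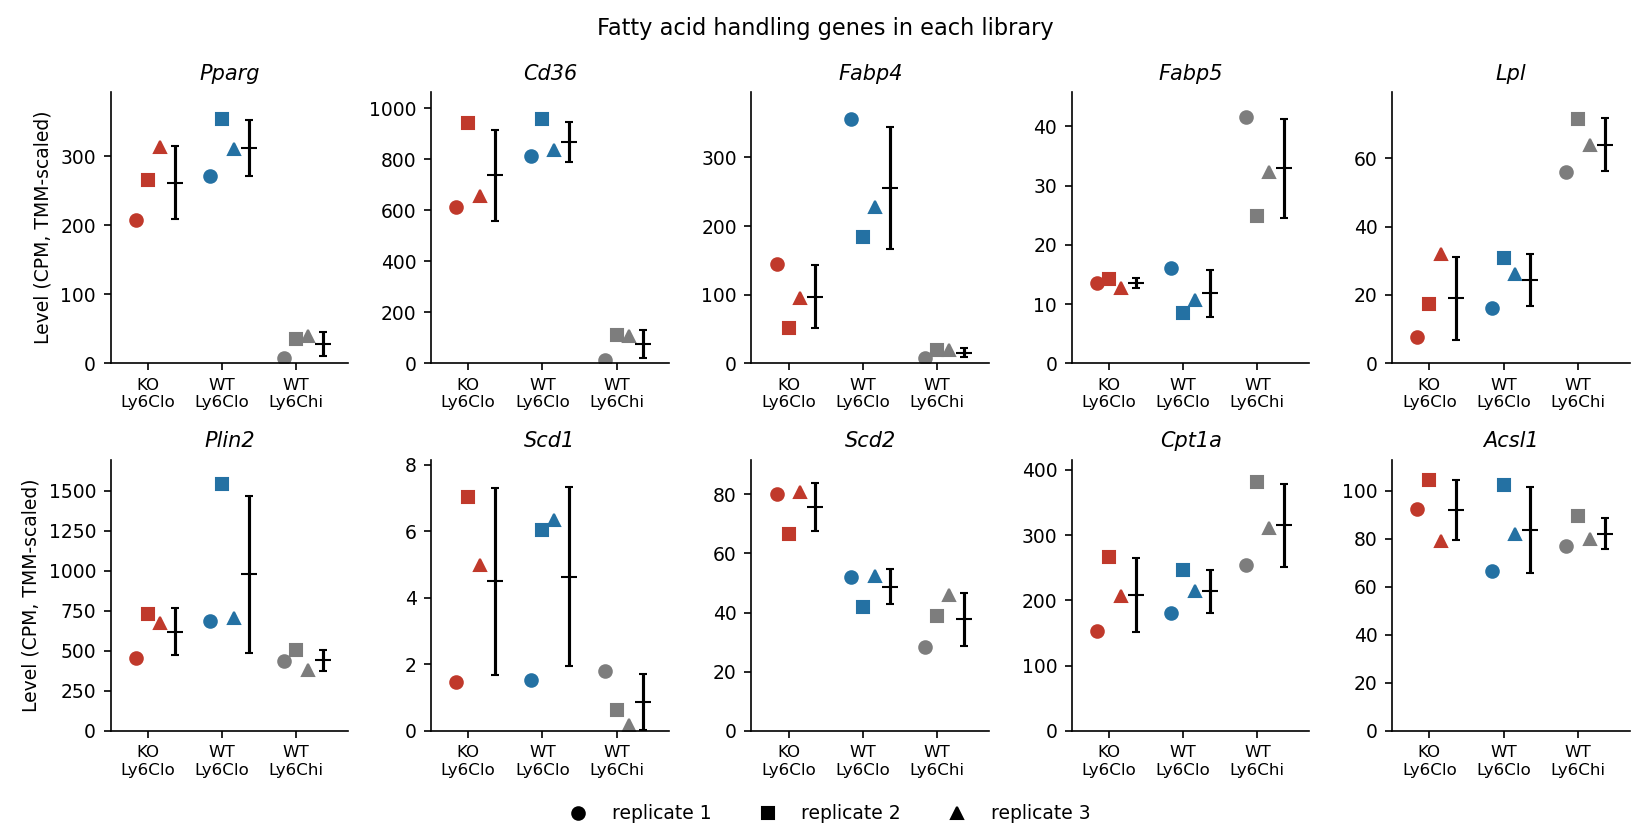
Level of each of the 10 genes in CPM on TMM-scaled library sizes (linear axes from 0), with KO Ly6Clo left, WT Ly6Clo in the middle and WT Ly6Chi right; circles, squares and triangles are replicates 1, 2 and 3, and bars are mean ± SD (n = 3 each). Pparg, Cd36 and Fabp4 stand far above the WT Ly6Chi libraries in both Ly6Clo groups, and Fabp5 and Lpl below them.

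Pparg (ENSMUSG00000000440, chromosome 6, 115360951 to 115490399 in GRCm38, plus strand), the receptor, was at 207, 265 and 313 CPM in KO Ly6Clo libraries, 271, 353 and 309.9 CPM in WT Ly6Clo, with 7.31, 35.8 and 38.9 CPM in WT Ly6Chi. The 2 Ly6Clo groups overlapped, and each of their 6 libraries was above every Ly6Chi library. KO and WT Ly6Clo monocytes averaged 262 ± 52.8 and 311 ± 41.0 CPM (SD, n = 3 each), a log2 fold change of -0.25 with a 95% interval of -1.37 to 0.86 (edgeR adjusted p = 1). Relative to WT Ly6Chi, at 27.3 ± 17.4 CPM, Pparg was 11.4-fold higher in WT Ly6Clo (log2 fold change 3.51 with SE 0.55, edgeR adjusted p = 0.012) and 9.57-fold higher in KO Ly6Clo (log2 fold change 3.26 with SE 0.54, edgeR adjusted p = 0.011). Within the 17 run the log2 ratio of WT Ly6Clo to WT Ly6Chi was 5.42 and within the 18 run 3.05, with 2 against 1 and 1 against 2 libraries. An antisense gene, Gm44079, overlaps Pparg, and the labels do not say whether counting used strand. How reads in the overlap were assigned is thus not known. Gm44079 itself was at 0.0537 to 1.67 CPM.

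Cd36 (ENSMUSG00000002944, chromosome 5, 17781690 to 17888801, minus strand) encodes a scavenger receptor that also takes up long-chain fatty acids. Its level was 613, 943 and 657 CPM in KO Ly6Clo, 812, 956 and 836 CPM in WT Ly6Clo, with 11.8, 109 and 105 CPM in WT Ly6Chi libraries. All 6 Ly6Clo libraries lay above the Ly6Chi ones, and KO replicates 1 and 3 lay below the WT Ly6Clo range. KO Ly6Clo averaged 738 ± 179 CPM, and WT Ly6Clo 868 ± 77.4 CPM (log2 fold change -0.23, 95% interval -1.64 to 1.17, edgeR adjusted p = 1). Cd36 was 11.5-fold higher in WT Ly6Clo than in WT Ly6Chi (75.5 ± 55.1 CPM; log2 fold change 3.52 with SE 0.68, edgeR adjusted p = 0.027) and 9.78-fold higher in KO Ly6Clo (log2 fold change 3.29 with SE 0.68, edgeR adjusted p = 0.029). The first of these calls was lost without WT Ly6Clo replicate 1, 2 or 3 (adjusted p = 0.072, 0.076 and 0.076) or WT Ly6Chi replicate 2 or 3 (0.074 and 0.073). The call for KO Ly6Clo was lost without KO replicate 2 (0.078) or 3 (0.068), WT Ly6Clo replicate 1 (0.051) or 3 (0.058), or WT Ly6Chi replicate 2 (0.075) or 3 (0.076), and in a fit of these groups alone (0.072). Within runs, log2 ratios of WT Ly6Clo to WT Ly6Chi were 6.22 and 2.96.

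Both genes have annotated starts whose upstream bases are known from RefSeq (GRCm38.p6), and 1 window of each is shown. They are shown because Pparg and Cd36 were the receptor and uptake genes that were higher in both Ly6Clo groups. A further reason is that the deleted element belongs to a C/EBP gene. Of the 10 genes, 5 had a RefSeq promoter entry, with 8 starts in all and 3 of them in Pparg. The 250 bases before each start were searched on both strands for the nuclear receptor half-site AGGTCA, the PPAR-RXR direct repeat (a pair of half-sites with 1 base between them), the NR4A element AAAGGTCA and the C/EBP site TTGCNNAA. The direct repeat and the NR4A element contain the half-site. Of the 3 Pparg starts only number 3 is printed, which is the only one with C/EBP matches, so the display follows the search result. Capitals mark the matches.
Pparg, start number 3 (chr6:115421816-115422065, plus strand): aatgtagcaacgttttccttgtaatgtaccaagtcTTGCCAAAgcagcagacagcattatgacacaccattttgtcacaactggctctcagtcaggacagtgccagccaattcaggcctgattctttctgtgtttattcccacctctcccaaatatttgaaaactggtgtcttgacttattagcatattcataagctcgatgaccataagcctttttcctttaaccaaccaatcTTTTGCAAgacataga
Cd36 (chr5:17835897-17836146, minus strand): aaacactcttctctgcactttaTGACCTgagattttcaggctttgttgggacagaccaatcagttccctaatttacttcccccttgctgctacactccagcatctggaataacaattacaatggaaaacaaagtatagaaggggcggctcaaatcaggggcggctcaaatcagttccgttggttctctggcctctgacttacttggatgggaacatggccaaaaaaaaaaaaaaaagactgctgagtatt
In the Pparg window C/EBP matches lie 215 to 208 and 16 to 9 bases before the start, as TTGCCAAA and, on the other strand, TTTTGCAA. No exon of the GENCODE annotation overlaps it, and 4 of 7 Pparg transcripts span it, so it is intronic to these. Of 32851 promoter windows of the same length, 9.56% hold a C/EBP match, and of the 8 windows of these genes 1 does. The Cd36 window has 1 half-site, 228 to 223 bases before the start, and 4 of 6 Cd36 transcripts span it. Half-sites were found in 5 of the 8 windows (first and second Pparg start, Cd36, Plin2 and Cpt1a) and in 14.0% of all. Neither the direct repeat (0.0335% of all) nor the NR4A element (1.34% of all) occurs in the 8 windows. Counts per gene do not show which Pparg start was used, and a match says only that these letters are present.

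Lpl (ENSMUSG00000015568, chromosome 8, 68880491 to 68907448), the secreted lipase that frees fatty acids from lipoprotein triglycerides, ran the other way from Cd36. It was at 7.70, 17.3 and 32.0 CPM in KO Ly6Clo, 16.1, 30.9 and 26.1 CPM in WT Ly6Clo, with 56.1, 71.6 and 64.0 CPM in WT Ly6Chi libraries. Every Ly6Clo library was below every Ly6Chi library, and the 2 Ly6Clo groups overlapped. The edgeR test was not passed by WT Ly6Clo against WT Ly6Chi (log2 fold change -1.39 with SE 0.46, adjusted p = 0.15) or by KO Ly6Clo against WT Ly6Chi (log2 fold change -1.75 with SE 0.47, adjusted p = 0.076). DESeq2 called both (adjusted p = 0.03 and 0.003), and limma-voom the second (adjusted p = 0.027). Between KO and WT Ly6Clo the log2 fold change was -0.36 (95% interval -1.39 to 0.66, edgeR adjusted p = 1), and its within-run values had opposite signs, -0.91 and 0.29.

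The 2 binding proteins differed in opposite directions between the subsets. Fabp4 (ENSMUSG00000062515, chromosome 3, 10204088 to 10208576), known from adipocytes and macrophages, was at 144, 52.0 and 94.9 CPM in KO Ly6Clo, 356, 183 and 228 CPM in WT Ly6Clo, with 7.62, 19.0 and 19.1 CPM in WT Ly6Chi libraries. The 3 groups did not overlap, with KO Ly6Clo in the middle. Fabp4 was 16.8-fold higher in WT Ly6Clo than in WT Ly6Chi (log2 fold change 4.07 with SE 0.51, edgeR adjusted p = 0.0045), a call kept under all 18 alternative settings, and 6.38-fold higher in KO Ly6Clo (log2 fold change 2.67 with SE 0.48, edgeR adjusted p = 0.016), a call lost without WT Ly6Chi replicate 2 (adjusted p = 0.054). Between KO and WT Ly6Clo, at 97.1 ± 46.2 and 256 ± 89.3 CPM (SD, n = 3 each), the log2 fold change was -1.40 (95% interval -2.43 to -0.36). Its edgeR unadjusted p was 0.014 and its adjusted p 0.62, which ran from 0.11 (DESeq2) to 1 over 18 alternatives. The log2 ratio was -1.46 within the 17 run and -1.27 within the 18 run.

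Fabp5 (ENSMUSG00000027533, chromosome 3, 10012548 to 10016607), the epidermal form, which macrophages also make, was at 13.6, 14.3 and 12.7 CPM in KO Ly6Clo, 16.1, 8.56 and 10.7 CPM in WT Ly6Clo, with 41.5, 24.9 and 32.3 CPM in WT Ly6Chi libraries. The Ly6Clo groups overlapped, and both lay below WT Ly6Chi. Fabp5 was 2.79-fold lower in WT Ly6Clo than in WT Ly6Chi (log2 fold change -1.48 with SE 0.30, edgeR adjusted p = 0.031) and 2.44-fold lower in KO Ly6Clo (log2 fold change -1.28 with SE 0.30, edgeR adjusted p = 0.045). These calls were close to the threshold. The WT one was lost without KO replicate 2 or 3, WT Ly6Clo replicate 2 or 3, or WT Ly6Chi replicate 1, 2 or 3 (edgeR adjusted p from 0.052 to 0.12). The KO one was lost without any single library except WT Ly6Clo replicate 1 (edgeR adjusted p from 0.051 to 0.16 without the other 8). KO and WT Ly6Clo differed by a log2 fold change of 0.20 (95% interval -0.46 to 0.86, edgeR adjusted p = 1).

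**Figure D2:**
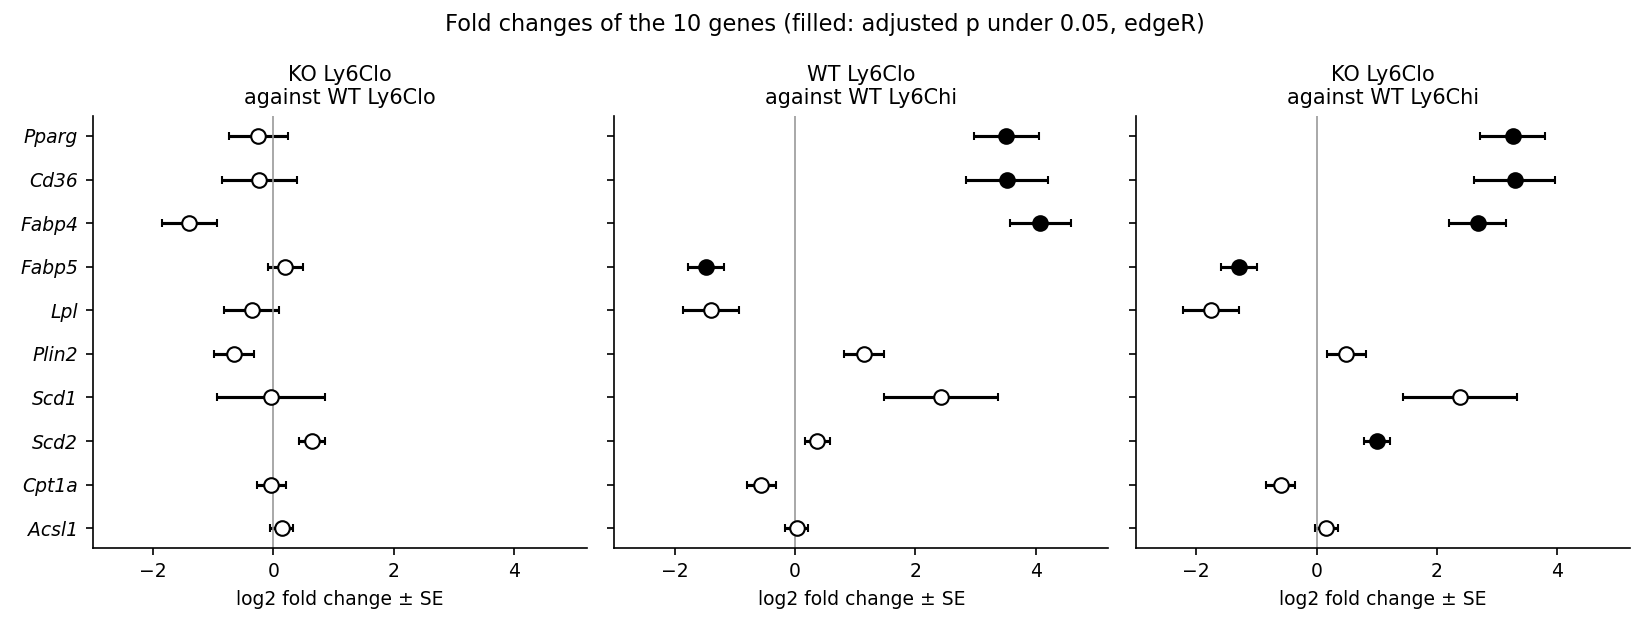
Log2 fold change ± SE of the 10 genes from the edgeR fit on all 9 libraries, for KO Ly6Clo against WT Ly6Clo (left), WT Ly6Clo against WT Ly6Chi (middle) and KO Ly6Clo against WT Ly6Chi (right); filled points have an adjusted p under 0.05. No point is filled in the left panel, 4 are in the middle one and 5 in the right one.

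Plin2 (ENSMUSG00000028494, chromosome 4, 86648386 to 86670060), the perilipin that coats lipid droplets in most cells, was abundant in all groups. It was at 454, 733 and 676 CPM in KO Ly6Clo, 686, 1542 and 704 CPM in WT Ly6Clo, with 434, 508 and 378 CPM in WT Ly6Chi libraries. WT Ly6Clo lay above WT Ly6Chi without overlap. WT Ly6Clo replicate 2 stood above all others, and the remaining WT Ly6Clo libraries lay within the KO range. No edgeR test was passed: the log2 fold change was -0.65 for KO against WT Ly6Clo (SE 0.33, adjusted p = 0.89), 1.15 for WT Ly6Clo against WT Ly6Chi (SE 0.33, adjusted p = 0.11) and 0.50 for KO Ly6Clo against WT Ly6Chi (SE 0.33, adjusted p = 0.53). DESeq2 called the second of these (adjusted p = 0.015). Without WT Ly6Clo replicate 2 its log2 fold change was 0.65, and that of KO against WT Ly6Clo was -0.15.

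Of the desaturases, Scd2 had the higher TPM in every library. Scd2 (ENSMUSG00000025203, chromosome 19, 44293674 to 44306864) was at 80.1, 66.5 and 80.7 CPM in KO Ly6Clo, 52.1, 41.8 and 52.4 CPM in WT Ly6Clo, with 28.3, 38.7 and 46.1 CPM in WT Ly6Chi libraries. The KO libraries lay above all libraries of the other groups, which overlapped each other. Scd2 was 2.01-fold higher in KO Ly6Clo than in WT Ly6Chi (log2 fold change 1.01 with SE 0.21, edgeR adjusted p = 0.032). Scd2 lost this call without any one KO library (adjusted p = 0.065, 0.058 and 0.11 for replicates 1, 2 and 3), WT Ly6Clo replicate 1 (0.058) or 3 (0.063), or WT Ly6Chi replicate 1 (0.075) or 2 (0.11). Against WT Ly6Clo, KO monocytes averaged 75.8 ± 8.06 and WT 48.7 ± 6.02 CPM (SD, n = 3 each), a log2 fold change of 0.64 (95% interval 0.16 to 1.11, edgeR unadjusted p = 0.015, adjusted p = 0.63). Within runs the log2 ratio of KO to WT Ly6Clo was 0.64 and 0.62. WT Ly6Clo and WT Ly6Chi differed in Scd2 by 0.37 on the log2 scale (SE 0.21, edgeR adjusted p = 0.4). A microRNA gene inside Scd2, Mir5114, had no counts.

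Scd1 (ENSMUSG00000037071, chromosome 19, 44394455 to 44407879) had the lowest TPM of the 10 genes in each group. It was at 1.47, 7.01 and 4.98 CPM in KO Ly6Clo, 1.52, 6.03 and 6.34 CPM in WT Ly6Clo, with 1.79, 0.626 and 0.163 CPM in WT Ly6Chi libraries. Replicate 1 of each group lay between 1.47 and 1.79 CPM, and the difference between subsets lay in replicates 2 and 3. The WT Ly6Chi values rest on 100, 30 and 8 counts. Neither subset comparison passed edgeR (log2 fold change 2.43 with SE 0.94, adjusted p = 0.22 for WT Ly6Clo and 2.38, SE 0.94, adjusted p = 0.24 for KO Ly6Clo against WT Ly6Chi). Within the Ly6Clo subset, KO over WT gave -0.04 with a wide 95% interval of -2.06 to 1.97 (edgeR adjusted p = 1).

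Cpt1a and Acsl1, the enzymes of mitochondrial entry and of activation, passed the edgeR test in no comparison. Cpt1a (ENSMUSG00000024900, chromosome 19, 3322334 to 3385733) was at 152, 266 and 207 CPM in KO Ly6Clo, 180.3, 246 and 215 CPM in WT Ly6Clo, with 254, 381 and 311 CPM in WT Ly6Chi libraries. WT Ly6Clo lay below WT Ly6Chi without overlap, and KO Ly6Clo overlapped both. Its log2 fold changes were -0.04 for KO against WT Ly6Clo (95% interval -0.58 to 0.51, adjusted p = 1), -0.56 for WT Ly6Clo against WT Ly6Chi (SE 0.24, adjusted p = 0.26) and -0.60 for KO Ly6Clo against WT Ly6Chi (SE 0.24, adjusted p = 0.24). Acsl1 (ENSMUSG00000018796, chromosome 8, 46471037 to 46536051) was at 92.4, 104 and 79.1 CPM in KO Ly6Clo, 66.4, 102 and 82.0 CPM in WT Ly6Clo, with 77.1, 89.5 and 79.8 CPM in WT Ly6Chi libraries. All groups overlapped, and its log2 fold changes were 0.14, 0.03 and 0.16 in the same order of comparisons, with 95% intervals of -0.30 to 0.57, -0.41 to 0.46 and -0.27 to 0.60. An antisense gene on Acsl1, Gm45244, was at 0 to 1.25 CPM.

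Levels of different genes were compared per gene length, as TPM (counts divided by gene length and scaled to a common total). In KO Ly6Clo monocytes the order was Cd36 (675 ± 149 TPM), Plin2 (582 ± 136), Pparg (292 ± 63.5), Cpt1a (89.7 ± 23.1), Fabp4 (71.5 ± 34.3), Scd2 (45.8 ± 5.84), Acsl1 (28.8 ± 3.26), Fabp5 (12.5 ± 0.430), Lpl (6.01 ± 3.996) and Scd1 (3.01 ± 1.84; SD, n = 3 libraries throughout). Cd36 and Plin2 overlapped, as did Cpt1a with Fabp4, Fabp4 with Scd2 and Lpl with Scd1, and the other neighbours were apart in all libraries. WT Ly6Clo monocytes had Plin2 (839.9 ± 363 TPM) ahead of Cd36 (742 ± 22.3), again with overlap, then Pparg (323 ± 27.3) and Fabp4 (177 ± 68.6), which was apart from Cpt1a (85.7 ± 9.35) there. WT Ly6Chi monocytes had Plin2 (382 ± 54.9 TPM) and Cpt1a (126 ± 23.8) first, followed by Cd36 (63.7 ± 46.3), Fabp5 (28.2 ± 7.51) and Pparg (28.1 ± 17.8). Fabp4, at 10.3 ± 4.37 TPM in WT Ly6Chi, came at rank 5 in KO Ly6Clo, 4 in WT Ly6Clo and 9 in WT Ly6Chi. The order was the same by FPKM for all 30 ranks. Within a library TPM and FPKM differ only by a common factor, so this is no independent check. The counted length of Fabp4, 4489 bases, is its whole span with introns, so its TPM is low relative to one per spliced length. Counted lengths of the other genes were not compared with spliced lengths. They were 10478 bases for Lpl, 10483 for Acsl1, 3567 for Fabp5 and 2953 for Pparg, so the order depends on them too.

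**Figure D3:**
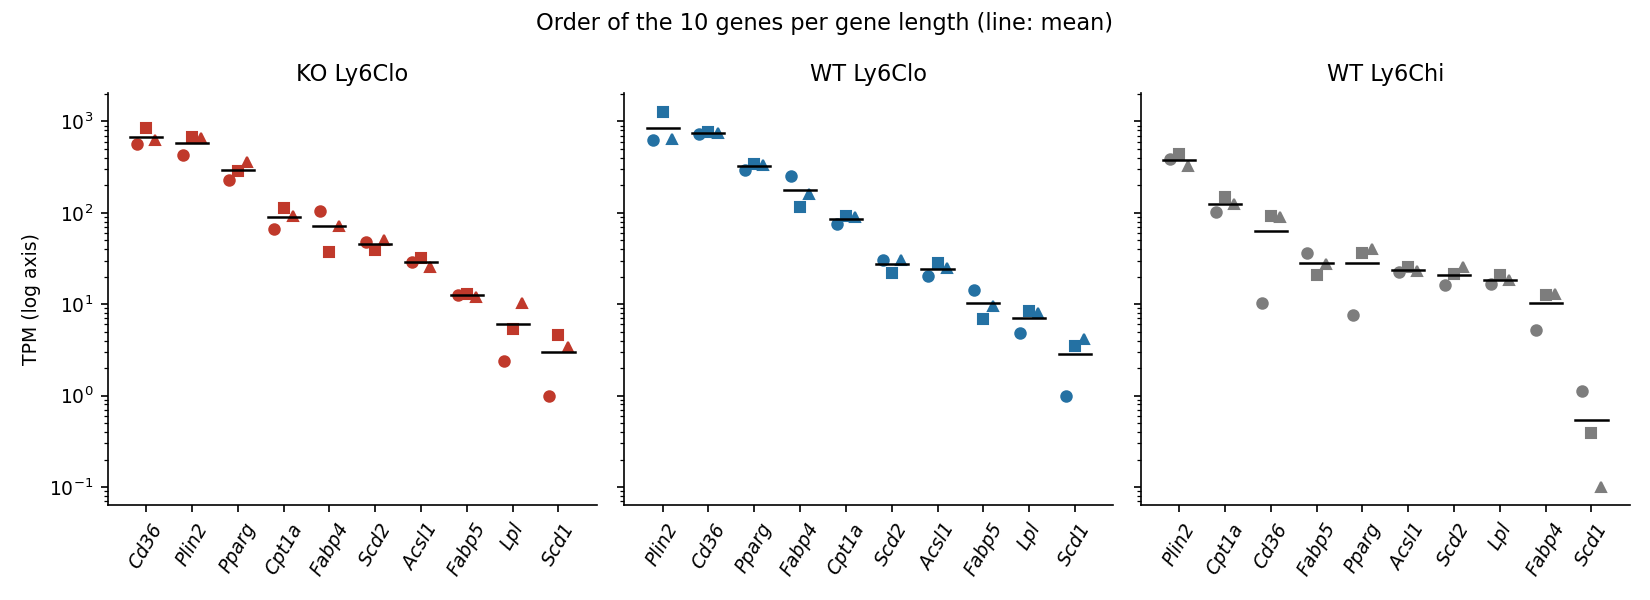
TPM of the 10 genes on a log axis, ordered by the mean in each group, with KO Ly6Clo left, WT Ly6Clo in the middle and WT Ly6Chi right; circles, squares and triangles are replicates 1, 2 and 3 and the line is the mean. Cd36, Plin2 and Pparg lead in both Ly6Clo groups, while Plin2 and Cpt1a lead in WT Ly6Chi.

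Within the WT Ly6Chi group, replicate 1 had the lowest Pparg, Cd36 and Fabp4. As a percentage of the WT Ly6Clo mean, Pparg was at 2.35, 11.5 and 12.5%, Cd36 at 1.36, 12.6 and 12.1%, and Fabp4 at 2.98, 7.41 and 7.47% in replicates 1, 2 and 3. The 8 Ly6Clo markers moved with them, with a median of 11.01, 39.6 and 41.4% (range 4.90 to 35.6, 19.2 to 90.6 and 16.1 to 83.9%). In each WT Ly6Chi library each of the 3 genes stood below all 8 markers. The part that cells or RNA of the other subset had in these levels was not tested. Replicate 1 is also the only WT Ly6Chi library of the 17 run, so a difference of run cannot be told apart from one between these libraries. Without WT Ly6Chi replicate 1, edgeR called 3 of the 10 genes for WT Ly6Clo and 3 for KO Ly6Clo against WT Ly6Chi. Without replicate 2 it called 2 and 1, and without replicate 3, the one set apart by sex-linked genes, 2 and 3.

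**Figure D4:**
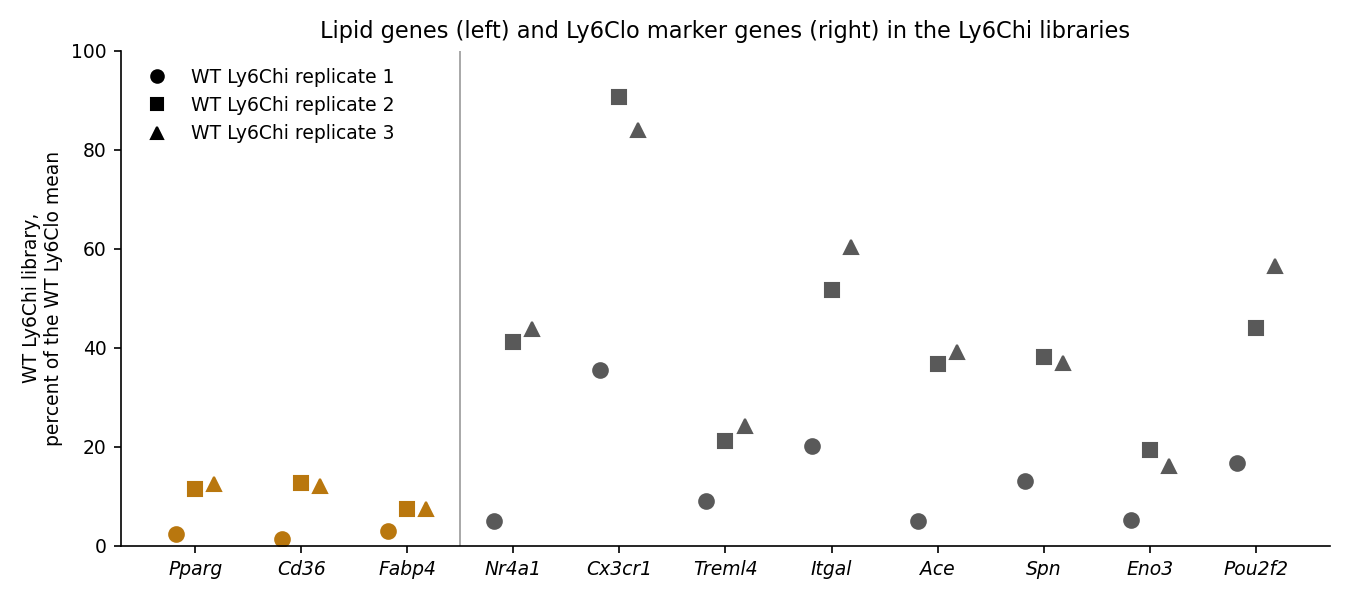
Level of Pparg, Cd36 and Fabp4 (left of the line) and of the 8 Ly6Clo marker genes (right) in each WT Ly6Chi library, as a percentage of the mean of the WT Ly6Clo libraries (linear axis); circles, squares and triangles are replicates 1, 2 and 3. Replicate 1 is lowest for all 11 genes, and the 3 lipid genes reach at most 12.6%.

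Cell types known for Pparg, Cd36 or Fabp4 were looked for by their markers. All 6 adipocyte markers were under 1 CPM in each library, with sums of 0.06 to 0.68 CPM in KO Ly6Clo, 0.07 to 0.31 in WT Ly6Clo and 0.06 to 0.29 in WT Ly6Chi, and Adipoq was at 0 in 8 of 9 libraries. Endothelial markers other than Vwf, 9 genes, summed to 3.55 to 6.79 CPM in KO Ly6Clo, 0.97 to 6.99 in WT Ly6Clo and 0.94 to 3.68 in WT Ly6Chi. Vwf alone was at 94.3 to 125, 43.1 to 65.1 and 8.91 to 13.03 CPM in these groups. The 9 platelet markers summed to 53.4 to 83.2, 45.2 to 78.2 and 31.8 to 41.7 CPM. Itgb3 made up most of this, at a mean of 52.9, 43.6 and 26.9 CPM, with Itga2b at 9.08, 9.06 and 4.47 CPM, and the other 7 summed to 2.41 to 11.7, 5.59 to 6.75 and 2.45 to 7.71 CPM. The 10 red pulp macrophage markers summed to 569 to 734 CPM in KO Ly6Clo, 592 to 780.1 in WT Ly6Clo and 437 to 617 in WT Ly6Chi. Adgre1 was most of that sum, at a mean of 456, 446 and 265 CPM, and the means of other members differed in both directions. Spic averaged 24.8, 26.6 and 12.9 CPM and Slc40a1 21.4, 30.3 and 9.19 CPM in these groups, while Axl averaged 8.73, 21.6 and 102 CPM and Cd163 0.187, 2.10 and 9.94 CPM. Erythroid markers varied most within a group, at 1.24, 7690.5 and 1594 CPM in KO Ly6Clo, 410.1, 3383 and 524 CPM in WT Ly6Clo and 138 to 235 CPM in WT Ly6Chi. The 10 neutrophil markers summed to 172 to 363, 362 to 465 and 582 to 1191 CPM. Csf3r alone was at 169.5 to 328, 356 to 459 and 297 to 473 CPM, and the other 9 summed to 2.10 to 34.3, 2.76 to 6.00 and 285 to 801 CPM. B cell markers summed to 141 to 549.8, 488 to 702 and 403 to 611 CPM, T cell markers to 26.9 to 130.0, 48.1 to 145 and 84.3 to 136 CPM, and NK cell markers to 13.6 to 311, 53.4 to 229 and 17.7 to 69.0 CPM. Conventional dendritic cell markers summed to 252 to 754, 204 to 338 and 165 to 423 CPM, plasmacytoid ones to 88.2 to 128, 117 to 141 and 182 to 228 CPM, and those of eosinophils, basophils and mast cells to 4.41 to 32.5, 1.36 to 50.9 and 0.64 to 2.59 CPM. Ighm was most of the B cell sum, at a mean of 333, 502 and 466 CPM. Conventional dendritic cell markers differed in both directions. Dpp4 averaged 233, 60.6 and 80.7 CPM and Wdfy4 196, 148 and 105 CPM, while Cd209a averaged 1.60, 34.5 and 86.4 CPM. The part of these cell types in the lipid gene levels was not tested.

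Other genes of the pathway came from 7 lists with 111 distinct genes, of which 88 passed the filter on low counts and were tested. Between KO and WT Ly6Clo edgeR called 0 of the 88 (0.0709% of all genes were called) and 13 had an unadjusted p under 0.05, against 6.16% of all genes. Limma-voom called 0, and DESeq2 called 1, the desaturase-related gene Fads3 (adjusted p = 0.0025), which lies outside the naming rule and was named after its values were seen. Fads3 was at 0.0776, 2.74 and 2.76 CPM in KO Ly6Clo, against 0.0183, 0.0133 and 0.0191 CPM in WT Ly6Clo. Between WT Ly6Clo and WT Ly6Chi 3 of the 88 were called higher and 3 lower, against 1.88% and 1.62% of all genes. Between KO Ly6Clo and WT Ly6Chi 2 were called higher and 10 lower, against 2.06% and 2.46% of all genes. Medians over the 88 were -0.08, -0.10 and 0.0039 in these comparisons.

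Among 12 PPAR receptors, partners and cofactors, 10 were tested, and 1 was called in 1 comparison. Rxra, the RXR partner of PPAR-gamma, was at 27.8, 52.2 and 32.8 CPM in KO Ly6Clo, 45.5, 59.99 and 41.1 CPM in WT Ly6Clo, with 61.6, 111 and 129.6 CPM in WT Ly6Chi libraries. It was lower in KO Ly6Clo than in WT Ly6Chi (log2 fold change -1.42 with SE 0.33, edgeR adjusted p = 0.048) and did not pass for WT Ly6Clo (-1.04, adjusted p = 0.14) or between the Ly6Clo groups (-0.38, adjusted p = 1). Rxrb averaged 142 ± 7.81, 157 ± 29.4 and 156 ± 16.1 CPM, and the coactivator gene Ncoa1 167 ± 39.8, 166 ± 27.4 and 147 ± 52.3 CPM, in KO Ly6Clo, WT Ly6Clo and WT Ly6Chi. Of the other PPAR genes, Ppara did not pass the filter on low counts and Ppard was at 1.30 to 5.01 CPM over the 9 libraries.

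Of 13 further PPAR target genes 11 were tested. Cyp27a1, the sterol 27-hydroxylase, was the 1 called, lower in KO Ly6Clo (177 ± 48.8 CPM) than in WT Ly6Chi (399.6 ± 117 CPM; log2 fold change -1.18 with SE 0.27, edgeR adjusted p = 0.041). It was at 229 ± 21.0 CPM in WT Ly6Clo and not called there (log2 fold change -0.80 against WT Ly6Chi, edgeR adjusted p = 0.15). The mitochondrial uncoupling protein gene Ucp2 was at 959, 1673 and 1257 CPM in KO Ly6Clo, 1768, 2287 and 1974 CPM in WT Ly6Clo, with 1727, 2291 and 2383 CPM in WT Ly6Chi libraries. Its KO libraries lay below all 6 others without passing the test (log2 fold change -0.63 with SE 0.22, edgeR adjusted p = 0.67 against WT Ly6Clo).

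In fatty acid uptake, binding and lipolysis 14 of 21 genes were tested. Slc27a1, a fatty acid transport protein gene, was at 16.6, 13.6 and 10.4 CPM in KO Ly6Clo, 9.33, 6.14 and 7.24 CPM in WT Ly6Clo, with 30.1, 22.2 and 18.3 CPM in WT Ly6Chi libraries, and was lower in WT Ly6Clo than in WT Ly6Chi (log2 fold change -1.64 with SE 0.31, edgeR adjusted p = 0.024). G0s2, an inhibitor of the triglyceride lipase ATGL, was at 46.3, 66.8 and 106 CPM in KO Ly6Clo, 159, 202 and 224 CPM in WT Ly6Clo, with 4.92, 43.4 and 26.4 CPM in WT Ly6Chi libraries. It was higher in WT Ly6Clo than in WT Ly6Chi (log2 fold change 2.97 with SE 0.67, edgeR adjusted p = 0.047). That call held in 9 of 18 alternatives. It was lost without KO Ly6Clo replicate 2 or 3, without any 1 WT Ly6Clo library, and without WT Ly6Chi replicate 2 or 3, at edgeR adjusted p from 0.059 to 0.14. Without WT Ly6Chi replicate 2 the log2 fold change was 3.65. Like Fabp4, G0s2 had 3 groups that did not overlap, with KO Ly6Clo in the middle, and it did not pass between KO and WT Ly6Clo (log2 fold change -1.42 with SE 0.63, edgeR adjusted p = 0.81). Abhd5, the coactivator of ATGL, Dbi, which binds acyl-CoA, and Lmf1, which folds lipases, were lower in KO Ly6Clo than in WT Ly6Chi, with log2 fold changes of -1.07, -1.83 and -1.35 (edgeR adjusted p = 0.025, 0.035 and 0.045). Dbi averaged 52.8 ± 19.2, 70.9 ± 21.8 and 188 ± 88.4 CPM in KO Ly6Clo, WT Ly6Clo and WT Ly6Chi.

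Of 17 lipid droplet and triglyceride synthesis genes 10 were tested. Bscl2, which encodes the droplet assembly protein seipin, was at 59.9, 67.9 and 61.5 CPM in KO Ly6Clo, 74.9, 62.2 and 62.4 CPM in WT Ly6Clo, with 135, 129 and 112 CPM in WT Ly6Chi libraries. It was lower than in WT Ly6Chi both in KO Ly6Clo (log2 fold change -0.99 with SE 0.15, edgeR adjusted p = 0.0086) and in WT Ly6Clo (-0.91, SE 0.15, adjusted p = 0.016). The droplet coat gene Plin3 was lower in KO Ly6Clo (38.8 ± 7.35 CPM) than in WT Ly6Chi (78.6 ± 11.02 CPM; log2 fold change -1.02 with SE 0.23, edgeR adjusted p = 0.042). Dgat1 and Dgat2, which make triglyceride, were not called in the comparison of the Ly6Clo groups. Dgat1 was at 28.9, 100.1 and 114 CPM in KO Ly6Clo and 56.3, 174 and 75.6 CPM in WT Ly6Clo, and Dgat2 at 37.9, 41.5 and 27.9 CPM in KO Ly6Clo and 38.9, 112 and 38.6 CPM in WT Ly6Clo.

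In fatty acid synthesis, elongation and desaturation 15 of 18 genes were tested and 1 was called in each subset comparison. Elovl5, the elongase of polyunsaturated chains, was at 314, 232 and 225 CPM in KO Ly6Clo, 294, 288 and 238 CPM in WT Ly6Clo, with 129, 147 and 147 CPM in WT Ly6Chi libraries, 1.82-fold higher in KO Ly6Clo and 1.94-fold higher in WT Ly6Clo than in WT Ly6Chi (edgeR adjusted p = 0.028 and 0.022). Acly, which makes cytosolic acetyl-CoA, averaged 357 ± 80.9, 439 ± 64.4 and 441 ± 90.1 CPM in KO Ly6Clo, WT Ly6Clo and WT Ly6Chi and was not called between the Ly6Clo groups. Of 11 acyl-CoA synthetases and thioesterases 10 were tested. Acss1, the mitochondrial acetyl-CoA synthetase, was at 293, 426 and 310.2 CPM in KO Ly6Clo, 272, 456 and 309.8 CPM in WT Ly6Clo, with 48.2, 132 and 118 CPM in WT Ly6Chi libraries, 3.46-fold and 3.49-fold higher in KO and WT Ly6Clo than in WT Ly6Chi (edgeR adjusted p = 0.031 and 0.035). The thioesterase gene Acot7 was lower in KO Ly6Clo than in WT Ly6Chi (log2 fold change -0.95 with SE 0.20, edgeR adjusted p = 0.033), and Acot9 averaged 153 ± 13.3, 174 ± 19.2 and 110.4 ± 13.9 CPM in the 3 groups.

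In mitochondrial and peroxisomal beta-oxidation 21 of 22 genes were tested. Crat, the carnitine acetyltransferase, was at 31.8, 28.8 and 29.9 CPM in KO Ly6Clo, 14.2, 25.1 and 14.0 CPM in WT Ly6Clo, with 55.0, 53.5 and 53.1 CPM in WT Ly6Chi libraries. It was lower in WT Ly6Clo than in WT Ly6Chi (log2 fold change -1.60 with SE 0.25, edgeR adjusted p = 0.012) and not called for KO Ly6Clo against either WT group (log2 fold change 0.76 against WT Ly6Clo, adjusted p = 0.6, and -0.84 against WT Ly6Chi, adjusted p = 0.11). Hadh and Echs1, which act on 2 steps of the cycle, were lower in KO Ly6Clo than in WT Ly6Chi (log2 fold change -1.28 and -0.85, SE 0.29 and 0.19, edgeR adjusted p = 0.041 and 0.037). Acaa2, the last step, averaged 153 ± 59.2 CPM in KO Ly6Clo and 168 ± 20.1 CPM in WT Ly6Clo, and Etfa, which passes electrons on, 92.8 ± 7.04 and 104 ± 4.17 CPM. Of the 18 alternative settings, 5 kept the call of Plin3 and 18 that of Bscl2 in KO Ly6Clo against WT Ly6Chi, the lowest and highest number for a pathway gene. Every other pathway call was lost without at least 1 single library: for WT Ly6Clo against WT Ly6Chi 0 of the 88 were called without WT Ly6Chi replicate 2 and 1 without any one WT Ly6Clo library, and for KO Ly6Clo against WT Ly6Chi 1 without KO replicate 3 or WT Ly6Chi replicate 2.

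**Figure D5:**
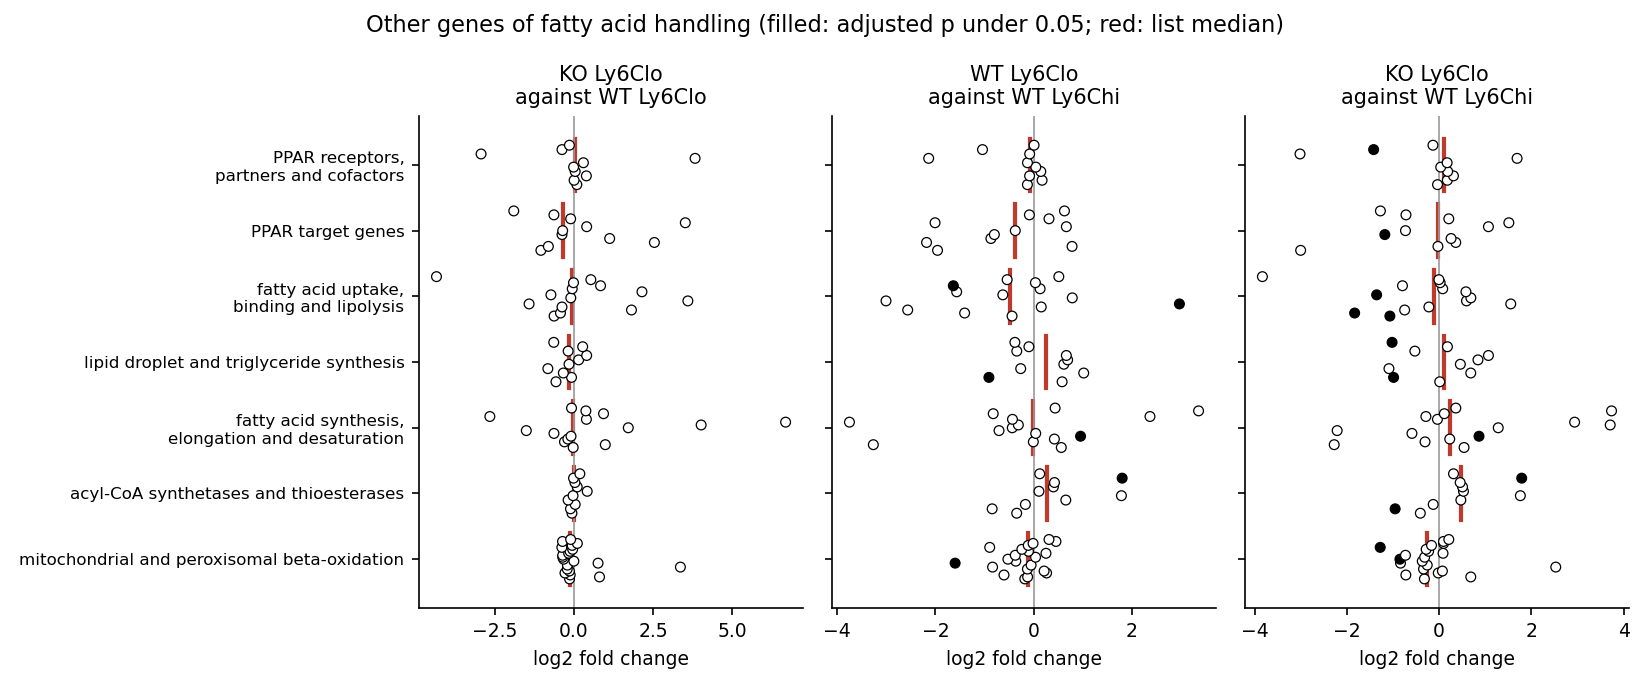
Log2 fold changes of the tested pathway genes by list, for KO Ly6Clo against WT Ly6Clo (left), WT Ly6Clo against WT Ly6Chi (middle) and KO Ly6Clo against WT Ly6Chi (right, horizontal axes differ); each point is a gene, filled where the edgeR adjusted p is under 0.05, and red lines are list medians. A gene in 2 lists appears in both; no point is filled in the left panel.

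The genes whose levels followed Pparg and Cd36 most closely over the 9 libraries were chosen by Pearson's r of log2(CPM + 1) among 8989 protein-coding genes with a mean of at least 5 CPM. The 9 points share 3 groups and the uneven WT Ly6Chi libraries, so these values describe a shared group pattern. For Pparg they were Cd82 (r = 0.997), Myo1g (0.994), Slc12a2 (0.992), Rbpms (0.992) and Bcl2a1d (0.991). For Cd36 they were Slc12a2 (0.995), Spn (0.994), Dock5 (0.993), Extl3 (0.993) and H2-K1 (0.992). Slc12a2, a sodium, potassium and chloride cotransporter gene, is on both lists and averaged 790.2 ± 182 CPM in KO Ly6Clo, 764 ± 138 CPM in WT Ly6Clo and 72.7 ± 52.7 CPM in WT Ly6Chi (SD, n = 3 each). The tetraspanin gene Cd82 averaged 535 ± 80.4, 604 ± 131 and 87.1 ± 45.8 CPM in the same groups, and Spn, a Ly6Clo marker that encodes CD43, 276 ± 16.6, 317 ± 37.3 and 93.0 ± 44.8 CPM.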

How the data were processed

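RNA of 9 sorted monocyte libraries (SMARTer Ultra Low RNA kit, 10 ng of total RNA, 12 to 15 PCR cycles, paired reads of 150 bases, per the labels' protocols) was given as 1 gene table per library. Its counts are whole reads the authors assigned to genes, with no scaling, per the file headers. CPM, FPKM and TPM columns, deposited in the same tables, are the authors' scaled values. TPM, with FPKM as the alternative, served to order genes per length, and the deposited CPM was compared with the counts only. Builds GRCm38 and mm10 appear in the submitters' processing notes, as do the tools Salmon 0.8.2, limma, STAR 2.5.1a, edgeR, bcl2fastq, featureCounts 1.4.6-p5 and Subread, with no role stated. Symbols came from GENCODE M21 of that build. The strand setting of the counting is not stated in the labels.

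In R 4.3.3, edgeR 4.0.16 filtered the counts by group (minimum count 10, 18341 genes kept), scaled libraries by TMM, and fitted 1 term per group over all 9 libraries. The spread of each gene was thus estimated over the 3 groups together. The common dispersion over all genes was 0.448, and each test used a quasi-likelihood dispersion of the gene itself. The quasi-likelihood test was adjusted by Benjamini-Hochberg over all genes, and a gene was called at an adjusted p under 0.05. Standard errors came from the F statistic, and 95% intervals from these and the degrees of freedom of the fit. Replicates of a group differed by a chi-square of 49.1 to 425 per gene, far above sampling noise. A count of 3 equals 0.0173 to 0.0623 CPM, and this covers counting error only, as PCR copies cannot be told from molecules. Alternatives were RLE scaling, no filter, 1 CPM in 3 libraries, DESeq2 1.42.0, limma-voom (limma 3.58.1), the 2 groups alone, a replicate block, a term for the library-number run, each library left out, and, chosen after seeing the data, both Ly6Clo libraries numbered 2 left out.

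Always named were the 10 genes and Cebpa. From each pathway list and comparison, up to 4 called genes with the smallest adjusted p were named, or else up to 2 tested genes of the highest mean TPM. The genes, lists and markers were chosen with earlier results of these data known.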

Additional observations from a re-analysis of the deposited data

How the results depend on the processing

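Between KO and WT Ly6Clo, 0 of the 10 genes were called by edgeR or under any of the 18 alternatives, DESeq2 and limma-voom included, with 2 at an unadjusted p under 0.05 in the fit reported. For WT Ly6Clo against WT Ly6Chi the 4 calls became 2 to 5 when single libraries were left out and 1 (Fabp4) without both Ly6Clo libraries numbered 2. For KO Ly6Clo against WT Ly6Chi the 5 calls became 1 to 4 without single libraries, 2 in a fit of the groups compared and 2 without both libraries numbered 2; these fits have fewer samples. The call of Pparg for WT Ly6Clo was lost only there, of 18 alternatives (adjusted p = 0.065). Over all genes, counts were 13, 643 and 829 in the order of the report, 277, 1968 and 1950 by DESeq2, 0, 217 and 456 without both libraries numbered 2, and 2 to 21, 239 to 847 and 379 to 818 without single libraries. For KO against WT Ly6Clo they were 54 without a filter, 27 at 1 CPM and 0 in a fit of the groups compared. Pathway genes called numbered 6 and 12 in the subset comparisons, 13 for WT Ly6Clo by DESeq2, 2 for KO Ly6Clo in a fit of the groups compared, 1 and 1 without both libraries numbered 2, and 0 to 6 and 1 to 7 without single libraries. Other causes of these shifts were not tested.

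Replicate numbers of the titles were not taken to pair the libraries, since the labels tie them to nothing. Deviations from the group mean did correlate more in same-numbered pairs between groups, over 0.1 in 5 of 9, so a pairing may exist that the main fit ignores. Those 9 had r from 0.0048 to 0.277, and the 18 other pairs from -0.22 to 0.103, 2 of them over 0.1. Pairs of replicate 1 had r of 0.277, 0.213 and 0.198, and pairs of replicate 3 had 0.048, 0.0048 and 0.0081. For replicate 2, r was 0.188 between the Ly6Clo libraries, and 0.104 and 0.0552 with WT Ly6Chi. A block by replicate number joins WT Ly6Chi replicate 2 to Ly6Clo libraries of the other run, so it need not follow a true pairing. With the number as a replicate block, 0, 4 and 7 of the 10 genes were called, Cpt1a and Lpl (adjusted p = 0.036 and 0.029) being added for KO Ly6Clo against WT Ly6Chi. All genes called numbered 13, 949 and 977 with the block. Cebpa lost its calls in KO against WT Ly6Clo (0.056) and in WT Ly6Clo against WT Ly6Chi (0.05), and Cyp27a1 (0.075) and Plin3 (0.067) theirs in KO Ly6Clo against WT Ly6Chi.

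No called gene changed direction. Among uncalled log2 fold changes of KO against WT Ly6Clo that turned sign, those without both libraries numbered 2 were -0.025 for Fabp5, -0.056 for Ncoa1, 0.12 for Dgat1, 0.021 for Elovl5, 0.058 for Acss1 and 0.055 for Acaa2. Ncoa1 was at -0.018 without a filter and -0.0034 by limma-voom, and Acss1 at 0.0086 with the block. Without single libraries the range was -0.55 to 0.36 for Scd1, -0.27 to 0.13 for Cpt1a, -0.021 to 0.32 for Acsl1, -0.27 to 0.021 for Rxrb, -0.23 to 0.16 for Ncoa1, -0.67 to 0.31 for Dgat1, -0.22 to 0.25 for Acss1 and -0.52 to 0.034 for Acaa2. For WT Ly6Clo against WT Ly6Chi it was -0.15 to 0.18 for Acsl1, -0.14 to 0.15 for Rxrb, -0.086 to 0.36 for Ncoa1 and -0.21 to 0.017 for Ucp2. There Acsl1 and Rxrb were at -0.15 and -0.14 without both libraries numbered 2, and Rxrb at -0.014 with the filter at 1 CPM and -0.0093 with the run term. The order of the genes by TPM was the same by FPKM for 30 of 30 ranks. These units differ only by a common factor within a library, so this says nothing about dependence on processing.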

Other observations

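The ratio of Fabp4 to Fabp5 in TPM was 8.43, 2.90 and 5.95 in libraries 1 to 3 of the KO Ly6Clo group, 17.5, 17.02 and 16.99 in WT Ly6Clo, and 0.146, 0.605 and 0.469 in WT Ly6Chi. It was alike in all WT Ly6Clo libraries although Fabp4 itself ran from 183 to 356 CPM there, and lower in each KO library. The ratio of Cd36 to Pparg was 2.44, 2.93 and 1.73 in KO Ly6Clo, 2.46, 2.23 and 2.22 in WT Ly6Clo, and 1.33, 2.51 and 2.22 in WT Ly6Chi, so the groups overlapped although both genes differed over 9-fold between subsets. These ratios were chosen after their values were seen and were not tested.

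Some other genes had KO Ly6Clo libraries above all WT Ly6Clo libraries and were likewise picked from their values. Of the 88 pathway genes tested, 15 had KO and WT Ly6Clo groups without overlap, against 10.9% of all genes. These went in both directions, with G0s2, Ucp2, Abhd5 and Agpat2 among those lower in KO Ly6Clo. The desaturase gene Fads2 was at 3.96, 13.5 and 12.3 CPM in KO Ly6Clo, against 0.0367, 0.848 and 0.936 CPM in WT Ly6Clo (edgeR adjusted p = 0.7) and 0.841, 0 and 1.43 CPM in WT Ly6Chi. Angptl4, which encodes an inhibitor of lipoprotein lipase, was at 1.07, 1.31 and 3.60 CPM in KO Ly6Clo, against 0.0733, 0.775 and 0.153 CPM in WT Ly6Clo (edgeR adjusted p = 0.74) and 2.93, 0.980 and 0.735 CPM in WT Ly6Chi. Acadl, the long-chain acyl-CoA dehydrogenase gene, was at 135, 100.0 and 77.8 CPM in KO Ly6Clo, against 71.4, 49.2 and 57.8 CPM in WT Ly6Clo (edgeR adjusted p = 0.64) and 85.7, 61.2 and 47.3 CPM in WT Ly6Chi. For Angptl4 and Acadl, KO Ly6Clo and WT Ly6Chi overlapped.

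WT Ly6Clo replicate 2, the deepest library, had the highest level of the 9 libraries for Plin2 (1542 CPM), Dgat1 (174 CPM), Dgat2 (112 CPM) and the immediate early gene Nr4a1 (11134 CPM, against 2458 and 5537 CPM in WT Ly6Clo replicates 1 and 3).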
